A study of Mus musculus with 4 samples.

Results

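Immediate early and heat shock genes were followed through the immune infiltrate of MC38 tumours. The 28 immediate early and 6 heat shock genes were chosen by symbol, as a named set of 34 of the 22620 genes in the deposited tables. All 34 were found, and their levels were read as raw unique molecular identifier (UMI) counts summed over cells of one type within each library. The set was not chosen by its values, although it was proposed with earlier results of these data known.

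Immediate early genes are switched on within minutes of a stimulus, without new protein synthesis, by transcription factors already present in the cell such as SRF with its ELK partners, CREB and NF-kappa B. Their products are AP-1, EGR, KLF and NR4A transcription factors, and inhibitors that end the signal: dual-specificity phosphatases, RNA-decay factors, SOCS3 and I kappa B alpha. Heat shock genes encode chaperones that refold proteins, and the inducible ones answer to a different factor, HSF1, when misfolded protein builds up. In macrophages and T cells immediate early genes respond to bacterial products, cytokines and antigen, and both groups are also known to respond when tissue is dissociated with warm enzymes.

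The study compared wild-type (WT) mice with Park2-/- mice, here called KO. Both carried tumours of MC38, a mouse colon adenocarcinoma line, and each genotype gave 2 libraries. Tumours had been sliced and digested with collagenases, dispase and DNase for 45 min at 37 °C, CD45-positive cells enriched on magnetic beads, and RNA captured with a 10x Genomics 3' kit. The nature of the disruption, the strain, age and sex, and how many mice made up a library were not stated in the labels. The p-values therefore measure the spread between libraries, which may be technical, and an exact permutation test of 2 against 2 cannot go below 0.333. In sums over cells, fewer expressing cells and less RNA per cell cannot be told apart. The 45 min digestion was the same for every library, and no undigested sample was analysed here, so what it added to the level of any gene was not tested.

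After filtering, 8083 and 8477 cells remained in WT 1 and WT 2, and 14999 and 8369 in KO 1 and KO 2, with median depths of 10585, 12405, 7166 and 10175 UMIs. Cells were assigned by marker genes, and each name below means only that. Macrophage-like cells numbered 4027, 4601, 7520 and 3863 in WT 1, WT 2, KO 1 and KO 2, monocyte-like cells 644, 465, 1034 and 824, and CD8 T-like cells 31, 93, 1017 and 417. Conventional dendritic (cDC)-like, neutrophil-like and CD4 T-like cells were also tested. Between 22 and 51 barcodes were shared by any 2 libraries, at most 0.541% of the smaller one.

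Stretches of 60 bases upstream of the start site are shown for 7 members. They were chosen because they hold a motif searched for, so they do not compare the groups' promoters, and they come from RefSeq windows on GRCm38.p6, run 5′ to 3′ on the gene's strand, and carry the motif in capitals. The searches, on both strands, were for the heat shock element as GAANNTTC or TTCNNGAA, the cyclic AMP response element TGACGTCA, the AP-1 site TGANTCA, and, by name, the kappa B site and the CArG box bound by SRF, in windows from 250 bases before to 50 after each start.
Hspa1a (chr17:34972223-34972282, minus strand): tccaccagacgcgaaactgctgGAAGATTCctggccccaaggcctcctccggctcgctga
Hspa1b (chr17:34959305-34959364, minus strand): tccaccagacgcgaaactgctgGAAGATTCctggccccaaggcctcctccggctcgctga
Hsph1 (chr5:149636337-149636396, minus strand): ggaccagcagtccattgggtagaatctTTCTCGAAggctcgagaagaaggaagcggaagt
Nfkbia (chr12:55492648-55492707, minus strand): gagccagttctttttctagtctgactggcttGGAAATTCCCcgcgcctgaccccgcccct
Dusp5 (chr19:53529033-53529092, plus strand): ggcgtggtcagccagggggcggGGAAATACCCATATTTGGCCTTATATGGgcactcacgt
Dusp1 (chr17:26508578-26508637, minus strand): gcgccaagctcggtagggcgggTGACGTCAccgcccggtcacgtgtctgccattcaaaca
Btg2 (chr1:134079284-134079343, minus strand): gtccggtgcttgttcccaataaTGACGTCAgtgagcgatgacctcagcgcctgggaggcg

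A heat shock element of the form GAANNTTC lay in the windows of Hspa1a, Hspa1b and Hsph1, 3 of the 4 heat shock genes with a window, and of Jun and Fosl2, 2 of the 24 immediate early genes with one. It was not found in the windows of Dnajb1, the remaining heat shock gene with one. Of all 32851 windows searched, 7.86% held it, and 8.52% held TTCNNGAA, found in Hsph1 and Egr2. The Dusp5 stretch holds a kappa B site overlapping the first of 2 CArG boxes. Nfkbia was the other member with a kappa B site, and Zfp36 and Egr2 the others with a CArG box, against 1.63% of all windows searched for each motif. Egr1, on chromosome 18, had no window in the search. The cyclic AMP element was in Dusp1 and Btg2 (1.79% of windows) and the AP-1 site in Zfp36l1 (7.81%). The 28 members with a window had 34 windows, and a member was counted if any of its windows held the motif. The background shares count single windows, so the 2 are not in the same unit. A match describes letters in a window and shows no binding. The whole windows of Hspa1a and Hspa1b differ at 4 of 300 bases. How reads were assigned to these neighbouring genes was not checked, so the split of UMIs between them is uncertain.

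In macrophage-like cells 11 of the 28 immediate early genes were higher in KO and none was lower, whereas 1 of the 6 heat shock genes was higher. Over all 12419 genes tested 11.4% were called, 6.69% as higher and 4.7% as lower. The called immediate early genes were the AP-1 member Fosb, Egr3, the stress factor Atf3 and the phosphatases Dusp1, Dusp2 and Dusp5. The others were the Krüppel-like factors Klf4 and Klf6, the inhibitors Socs3 and Nfkbia, and the I kappa B gene Nfkbiz. The median log2 change (KO minus WT) was 0.45 for the 28 immediate early genes, 0.20 for the 6 heat shock genes and -0.02 for all genes tested. Calls are edgeR quasi-likelihood tests with Benjamini-Hochberg adjusted p under 0.05 over all genes, and levels are UMIs per 1000000 (CPM) with TMM scaling, given as WT 1, WT 2, KO 1 and KO 2. With total-count scaling, which moved the median of all genes to -0.17 and the calls from 831 higher and 584 lower to 568 and 1412, the median was 0.30 for immediate early genes (22 of 28 positive) and 0.05 for heat shock genes (3 of 6 positive). The medians were 0.28 and 0.05 (3 of 6 positive) without cells that held a UMI of Cx3cr1, Fcrls or Mki67. Such cells were a larger share of the WT than of the KO macrophage-like cells, so the makeup of these sums differed with genotype. Over all macrophage-like cells the heat shock median was 0.13 without KO 1, 0.36 without KO 2 and 0.31 without WT 1.

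**Figure D1:**
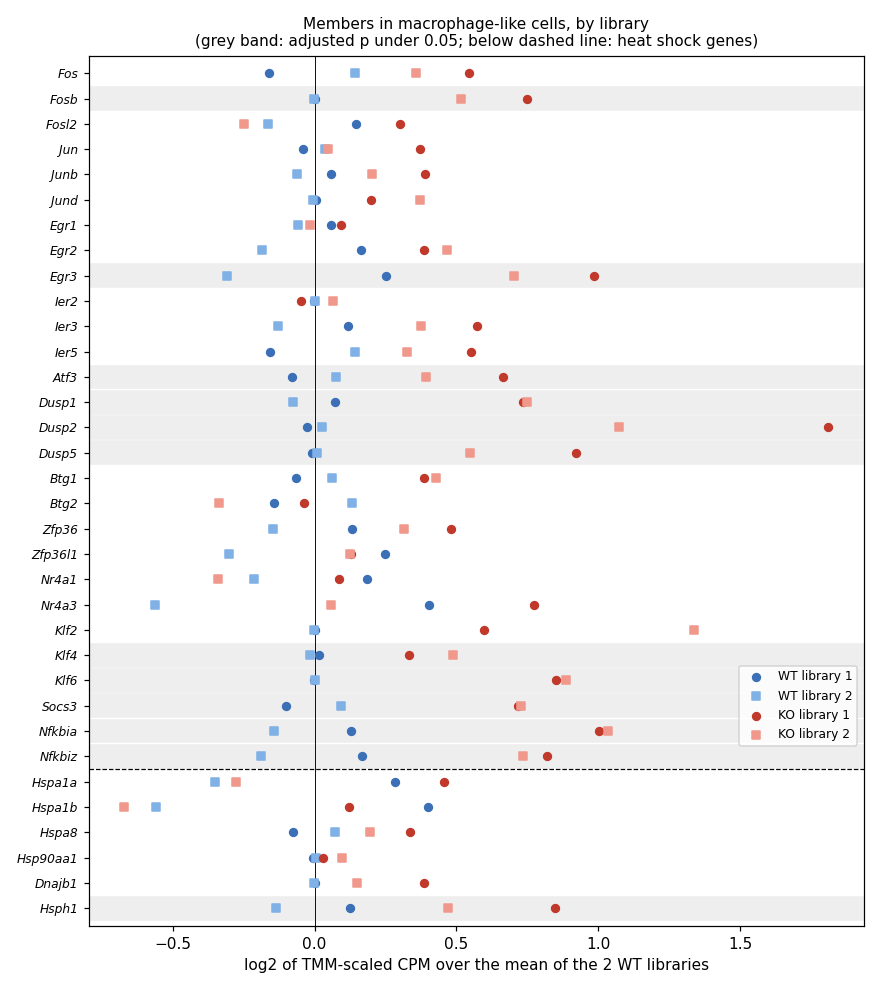
Each member's level in macrophage-like cells of each library, as log2 of TMM-scaled CPM over the mean of the 2 WT libraries (horizontal axis); points are libraries, grey bands mark adjusted p under 0.05. Both KO libraries lie above both WT libraries for 21 of the 28 immediate early and 4 of the 6 heat shock genes (28.5% of all genes), while Hspa1a and Hspa1b are high in library 1 of each genotype.

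Fos, the AP-1 partner most used as an early activation marker, was among the most abundant members, at 1213, 1497, 1975 and 1739 CPM. Both KO libraries lay above both WT libraries, as they did for 28.5% of all genes, but the change of 0.45 ± 0.14 (log2, SE) did not pass (adjusted p = 0.075, edgeR). Fosb stood at 343, 341, 574 and 489 CPM. It rose by 0.64 ± 0.11 (adjusted p = 0.0117, edgeR), a call lost without WT 1 (0.0571) or without KO 1 (0.0558).

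No other AP-1 subunit passed in these cells. Jun was at 330, 349, 439 and 351 CPM, so that KO 2 sat almost on WT 2, and Junb was at 1299, 1198, 1635 and 1436 CPM. Jund was at 448, 445, 513 and 578 CPM, with the KO libraries above the WT libraries. None of the 3 passed (adjusted p = 0.302, 0.155 and 0.127, edgeR). Fosl2, at 160, 129, 178 and 122 CPM, overlapped between the genotypes and had a log2 change of 0.05 ± 0.21.

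Among the EGR zinc-finger factors, Egr1 had the same level in every library within its spread, at 81.1, 74.9, 83.1 and 77.2 CPM (log2 change 0.04 ± 0.10). Egr2 read 41.6, 32.6, 48.5 and 51.3 CPM and did not pass (adjusted p = 0.0647, edgeR). Egr3 was scarce, at 2.97, 2.01, 4.93 and 4.06 CPM. Its call (0.86 ± 0.22, adjusted p = 0.0413, edgeR) was lost without WT 2 (0.132) or KO 1 (0.137).

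Of the remaining transcription factors, Klf6 had the lowest adjusted p of the set. It had 325, 326, 587 and 602 CPM, so the libraries of one genotype differed far less than the genotypes did, and rose by 0.87 ± 0.10 (adjusted p = 0.0022, edgeR). Klf4, a factor of macrophage polarisation, read 300, 294, 374 and 417 CPM; its smaller change (0.41 ± 0.11, adjusted p = 0.0401, edgeR) was lost whichever library was left out (0.071 to 0.214). Klf2, which restrains inflammatory activation, was at 106 and 106 CPM in WT but at 160.5 and 268 CPM in KO. Its KO libraries lay above both WT libraries yet were too far apart to pass (1.01 ± 0.26, adjusted p = 0.0854, edgeR).

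Atf3, a repressor induced by many stresses, read 211, 235, 354 and 293 CPM and rose by 0.53 ± 0.12 (adjusted p = 0.0277, edgeR), a call lost without WT 1 (0.143) or KO 1 (0.164). The orphan nuclear receptors overlapped: Nr4a1 was at 163, 123, 152 and 113 CPM and Nr4a3 at 21.9, 11.2, 28.3 and 17.2 CPM. In both, library 1 of each genotype was the higher. Ier2 was flat at 109, 109, 106 and 114 CPM. Ier3, a survival factor, and Ier5, an HSF1 cofactor, had KO above WT without passing (adjusted p = 0.0515 and 0.0627, edgeR).

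All 3 member phosphatases of MAP kinases were called higher, whereas Dusp6, outside the set, was called lower (-0.45, adjusted p = 0.0417, edgeR). Dusp1, which dephosphorylates p38 and JNK, stood at 849, 767, 1345 and 1358 CPM, with the KO libraries close together and far above WT. It rose by 0.74 ± 0.11 (adjusted p = 0.00637, edgeR). Dusp5, an ERK phosphatase of the nucleus, was at 44.8, 45.4, 85.3 and 65.9 CPM and rose by 0.75 ± 0.13 (adjusted p = 0.0111, edgeR), which was lost without WT 1 (0.0922) or WT 2 (0.0542).

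Dusp2, a phosphatase of activated leukocytes, averaged 402 CPM in T-like and NK-like cells together, against 10.5 CPM in macrophage-like cells. Those lymphoid cells numbered 229, 363, 1868 and 928 in WT 1, WT 2, KO 1 and KO 2, and free RNA was not removed. The part of lymphoid RNA in the Dusp2 values of macrophage-like and monocyte-like cells was not tested. In macrophage-like cells Dusp2 had the largest log2 change of the set, from a low level. It was at 5.43, 5.64, 19.4 and 11.6 CPM, both KO libraries high but unlike each other, a rise of 1.49 ± 0.26 (adjusted p = 0.0271, edgeR). That call was lost without WT 1 (0.171) or WT 2 (0.12).

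None of the genes that slow growth or destroy unstable messages passed. Btg1, an antiproliferative cofactor of deadenylation, was at 791, 863, 1080 and 1113 CPM, with KO above WT (0.41 ± 0.11, adjusted p = 0.0511, edgeR). Zfp36, which degrades Tnf and other AU-rich messages, read 721, 594, 918 and 819 CPM (adjusted p = 0.0862, edgeR). Btg2 read 436, 528, 469 and 381 CPM, with KO 2 lowest, and Zfp36l1 498, 340, 459 and 457 CPM. The genotypes overlapped in Btg2 and Zfp36l1.

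The signalling genes Nfkbia, Nfkbiz and Socs3 all rose. Nfkbia, the inhibitor I kappa B alpha and itself an NF-kappa B target, went from 374 and 309 CPM in WT to 685 and 700 CPM in KO (1.02 ± 0.12, adjusted p = 0.00237, edgeR). Nfkbiz, a nuclear I kappa B protein needed for a set of secondary response genes, read 105, 82.5, 166 and 156 CPM (0.78 ± 0.13, adjusted p = 0.00835, edgeR). Socs3, which blocks signalling of the IL-6 receptor family, read 152, 173, 267 and 269 CPM (0.72 ± 0.11, adjusted p = 0.00475, edgeR).

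For Nfkbia, Nfkbiz and Socs3 alike both KO libraries were above both WT libraries, and the calls held without any one library. Across all 14 alternative settings Dusp1, Klf6, Socs3 and Nfkbiz kept their calls. An alternative added after seeing the data left out macrophage-like cells that held a UMI of Cx3cr1, Fcrls or Mki67. Of the WT cells 764 of 4027 and 794 of 4601 remained, and of the KO cells 4397 of 7520 and 1900 of 3863. The makeup of the macrophage-like sums thus differed with genotype, and its part in the calls was not tested. Without the cells left out, 6 immediate early genes were called in place of 11, and Nfkbia had a log2 change of 0.53 (adjusted p = 0.0503, edgeR). Without WT 1 the count was 7, and with DESeq2 18. These counts of called immediate early genes are given without the share of all genes called in the same settings. Total-count scaling ended the calls of Egr3, Atf3 and Klf4, and having no filter on low counts that of Dusp2.

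Of the heat shock genes, the inducible HSP70 pair differed more between libraries of one genotype than between the genotypes. With 2 libraries each, this does not show that genotype had no effect, and nothing says that a library number pairs WT with KO. Hspa1a, the inducible HSP70, read 97.7, 62.9, 110 and 66.2 CPM, and its copy Hspa1b 91.6, 47.1, 75.5 and 43.6 CPM. In both, library 1 of each genotype was high and library 2 low, the genotypes overlapped, and the log2 changes were 0.14 ± 0.37 and -0.22 ± 0.52. The SD of the 2 WT libraries was 30.6% of their mean for Hspa1a and 45.4% for Hspa1b, against 14.8% for Fos. A wide spread was not particular to this pair or to heat shock genes. It was 45.7% for Nr4a3 and 27.1% for Egr3, but 0.145% for Dnajb1 and 0.0965% for Klf6.

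Hspa8, the constitutive HSC70, was abundant and had KO above WT without passing, at 1484, 1642, 1975 and 1792 CPM (0.27 ± 0.12, adjusted p = 0.194, edgeR). Hsp90aa1, the inducible HSP90, read 310, 313, 318 and 333 CPM, a change of 0.06 ± 0.10. Dnajb1, the HSP40 that hands clients to HSP70, read 27.6, 27.6, 36 and 30.6 CPM (adjusted p = 0.139, edgeR).

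Hsph1, the HSP110 nucleotide exchange factor, was the heat shock gene that passed, at 26.3, 22, 43.4 and 33.4 CPM (0.67 ± 0.15, adjusted p = 0.0308, edgeR). Its call was lost without WT 1 (0.0772), WT 2 (0.115) or KO 1 (0.0611), and with total-count scaling.

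**Figure D2:**
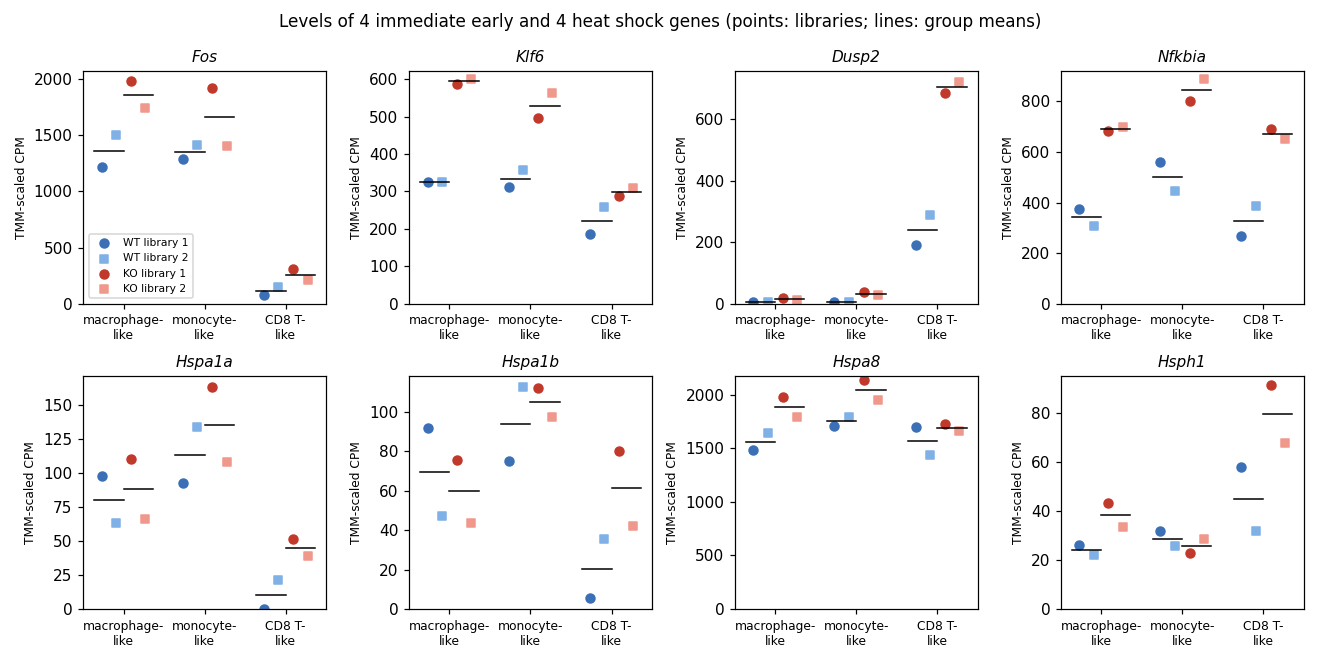
TMM-scaled CPM of Fos, Klf6, Dusp2, Nfkbia, Hspa1a, Hspa1b, Hspa8 and Hsph1 (vertical axes, from 0) in macrophage-like, monocyte-like and CD8 T-like cells; points are libraries and lines the means of 2. Klf6 in macrophage-like cells goes from 325 and 326 CPM to 587 and 602 CPM, while Hspa1a overlaps between genotypes in macrophage-like and monocyte-like cells.

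Other genes of the same responses were read from companion lists. In macrophage-like cells 16 of 50 tested further immediate early genes were higher and 1 was lower, with the largest rises in Irf1 (log2 1.65), Ptgs2 (1.60), Tnfaip3 (1.10) and Cited2 (1.00), and the fall in the ERK phosphatase Dusp6 (-0.45). Of 31 further cytosolic and mitochondrial chaperone genes 3 were higher and 1 lower. The ubiquitin gene Ubb (0.67) and Hspa4l (0.39) were among those that rose, and the collagen chaperone Serpinh1 fell by 0.99 on the log2 scale. Of 18 ER chaperone genes 3 rose, Calr (0.41), Creld2 (0.36) and Pdia6 (0.36). None of 15 upstream kinases and factors was called (edgeR, 2 at an unadjusted p under 0.05). Over all 12419 genes tested in these cells 6.69% were called higher and 4.7% lower, and 27.9% had an unadjusted p under 0.05.

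Monocyte-like cells, gated on markers such as Ly6c2 and Ccr2 and on little C1q, gave 9 immediate early genes higher, 0 lower and no heat shock gene called (1 at an unadjusted p under 0.05; 0 with DESeq2). The background was 6.5% of 10637 genes called, 4% as higher and 2.49% as lower, and 22.4% at an unadjusted p under 0.05 (edgeR). KO lay above WT for 14 immediate early genes, against 26.4% of all genes. Dusp2 again had the largest change, from 7.07 and 6.65 CPM to 37.1 and 29.8 CPM (2.28 ± 0.19, adjusted p = 0.00319, edgeR). Socs3 went from 181 and 223 CPM to 478 and 428 CPM (1.17 ± 0.13, adjusted p = 0.00458, edgeR). In both genes the KO libraries lay well above WT, and the calls held in all 12 alternatives run here.

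Nfkbia was at 560, 444, 803 and 890 CPM, Klf6 at 312, 357, 496 and 562 CPM, and Ier5 at 111, 139, 253 and 209 CPM. All 3 had KO above WT and passed (adjusted p = 0.0183, 0.0189 and 0.0144, edgeR), Nfkbia not without WT 2 (0.0909), Klf6 not without WT 1 (0.133) and Ier5 not without WT 1 (0.0729). Nfkbiz passed as well (0.95 ± 0.18), but not without KO 1 (0.0874) or with thinned cells (0.0959). Atf3, Dusp1 and Zfp36 passed with log2 changes of 0.85, 0.54 and 0.60, each lost without at least 2 of the libraries, with adjusted p up to 0.13, 0.135 and 0.173. Dusp1 was also lost with thinned cells and Zfp36 with total-count scaling. The summed C1q level of these cells was 251 and 276 CPM in WT and 465 and 368 CPM in KO, and the 8 macrophage markers, none at 0, summed to 1811, 2089, 2964 and 2180 CPM. Near the C1q limit of the gate lay 51 and 38 WT and 208 and 93 KO cells. The part of either in the calls was not tested.

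The Fos of monocyte-like cells overlapped between genotypes, at 1283, 1408, 1913 and 1403 CPM, as did Fosb, at 341, 223, 236 and 216 CPM. Klf4 lay lower in KO than in WT, unlike in macrophage-like cells, at 333, 313, 285 and 285 CPM, without passing. The inducible HSP70 genes overlapped here too, but in another order: Hspa1a read 92.6, 134, 163 and 108 CPM, so WT 1, the high WT library in macrophage-like cells, was now the lowest. The median log2 change was 0.33 for immediate early and 0.24 for heat shock genes. The heat shock median was 0.03 (3 of 6 positive) with cells thinned to 2000 UMIs, 0.10 without WT 1 and 0.11 without KO 1, and the immediate early median was 0.57 without WT 1.

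CD8 T-like cells had a small WT base, with 31 cells and 164742 UMIs in WT 1. Still, 10 of 28 immediate early genes were called higher and 0 lower, and 0 of 6 heat shock genes (2 at an unadjusted p under 0.05; 0 with DESeq2), against 1.27% of 8432 genes called and 1.07% called higher. An unadjusted p under 0.05 was found for 11.7% of all genes (edgeR). The median log2 change was 0.87 for immediate early and 0.77 for heat shock genes, and 0.01 for all genes. Without WT 2 they were 1.31, 0.32 and 0.12. Here the AP-1 subunits Junb and Jund, and the growth-restraining Btg1 and Btg2, were among those called.

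Dusp2, abundant in T cells, went from 191 and 289 CPM to 686 and 722 CPM (1.48 ± 0.19, adjusted p = 0.00102, edgeR). Btg1 went from 603 and 834 CPM to 1485 and 1382 CPM (0.97 ± 0.17, adjusted p = 0.00843, edgeR). Btg2 went from 162 and 295 CPM to 695 and 523 CPM (1.31 ± 0.24, adjusted p = 0.022, edgeR). These 3 genes had no overlap between genotypes and kept their calls in all 11 alternatives.

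Nr4a1, induced by T cell receptor signals, read 29, 86.4, 194 and 174 CPM (1.39 ± 0.26, adjusted p = 0.0228, edgeR). Zfp36 read 46.4, 93.5, 221 and 181 CPM and rose by 1.33 ± 0.24 (adjusted p = 0.0103, edgeR). Both calls held without any one library but were lost when every cell was thinned to 2000 UMIs (0.161 and 0.0986).

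Atf3, at 11.6, 14.1, 74.9 and 54 CPM, and Dusp5, at 92.7, 88.2, 307 and 217 CPM, rose by 2.27 and 1.56, and both lost the call without WT 2 (0.0732 and 0.0709), Atf3 also with thinned cells (0.266). Junb, Jund and Nfkbia rose by 0.96, 0.90 and 0.98, and lost it without KO 1 (0.237, 0.0558 and 0.05).

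Hspa1a in CD8 T-like cells was at 0 and 21.2 CPM in WT and at 51.2 and 39.2 CPM in KO, and Hspa1b at 5.8, 35.3, 80.3 and 41.8 CPM. KO lay above WT in both without passing (adjusted p = 0.195 and 0.545, edgeR). Hspa8, at 1698, 1436, 1732 and 1658 CPM, overlapped.

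Macrophage markers were found in these T cell sums and moved with genotype: the 8 macrophage markers summed to 473 and 675 CPM in WT and 2019 and 1085 CPM in KO, none at 0 in any library. The summed C1q level was 2.42% and 2.34% of that in macrophage-like cells of the same library in WT, and 5.92% and 4.06% in KO. With that share of the macrophage-like level subtracted, Dusp2 stood at 190, 287, 679 and 716 CPM, Atf3 at 6.25, 8.37, 53.6 and 42 CPM, and Fos, not called, at 44.6, 111, 191 and 141 CPM. The part of macrophage RNA in the calls was not tested.

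In CD4 T-like cells 30 of 6464 genes were called (0.464%, 0.371% as higher and 0.0928% as lower), Dusp2 among them at 180, 184, 330 and 306 CPM (0.80 ± 0.18, adjusted p = 0.0491, edgeR). That call was lost without KO 1 (0.534) or KO 2 (0.0511). It was the 1 member of 32 tested to pass, and 6 immediate early genes, 2 heat shock genes and 6.4% of all genes had an unadjusted p under 0.05. In cDC-like cells 3 of 10283 genes were called (0.0292%) and no member, with 8 immediate early and 1 heat shock gene at an unadjusted p under 0.05, as were 8.1% of all genes (edgeR). Under DESeq2 no member was called there either. Without KO 2, 11.5% of 10921 genes were called higher in cDC-like cells and 9.27% lower, 19 and 2 immediate early genes among them.

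Neutrophil-like cells gave 34 calls among 3080 genes (1.1%, 0.942% as higher and 0.162% as lower) and no member. At an unadjusted p under 0.05 were 3 immediate early and 0 heat shock genes, and 8.83% of all genes (edgeR), and none with DESeq2. Their Nfkbia level was 3105, 2579, 4910 and 8396 CPM, with both KO libraries higher but far apart (adjusted p = 0.106, edgeR). Fos there was at 2939, 2156, 1683 and 2297 CPM and overlapped. NK-like cells were not tested, with 18 cells in WT 1. Summed over all gated immune cells, which mixes levels with cell numbers, 9 immediate early genes and 0 heat shock genes were called higher, against 5.21% of 13073 genes higher and 7.42% called (edgeR). There 2 heat shock genes and 25.7% of all genes had an unadjusted p under 0.05, and DESeq2 was not run.

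**Figure D3:**
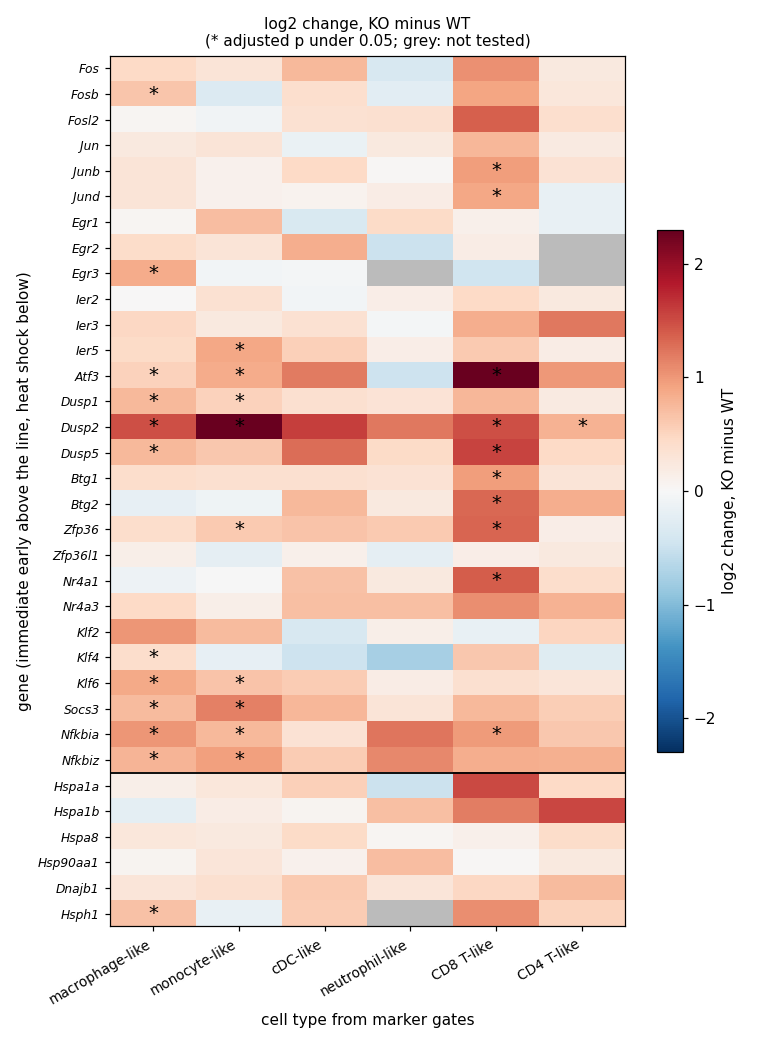
The log2 change (KO minus WT, colour) of each member (vertical axis) in the 6 tested cell types (horizontal axis), with * for adjusted p under 0.05 and grey for genes not tested. Calls fall in 19 of the 34 members, all of them higher in KO, and Hsph1 in macrophage-like cells is the only call below the line that separates the heat shock genes.

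Over the 6 tested types 19 of 34 members were called higher in at least 1 type and 9 in at least 2, against 8.27% and 2.79% of all genes tested in that many types. Atf3, Dusp2 and Nfkbia were called in macrophage-like, monocyte-like and CD8 T-like cells (0.231% of all genes), and Dusp2 also in CD4 T-like cells. Dusp2 and Dusp5 were the members whose KO libraries lay above the WT libraries in all 6 types. In single types 17.6% (CD4 T-like) to 28.5% (macrophage-like) of all genes did so. The share of all genes that did so in all 6 types was not computed. Fos, Jun, Egr1, Ier2 and Hspa8 were among the 15 called in none. The types come from the same 4 libraries, so they are not independent repeats. The part of lymphoid RNA in the Dusp2 values of macrophage-like and monocyte-like cells was not tested.

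Whether the KO difference itself differed between types was tested with an interaction term and the library as a block. Between monocyte-like and macrophage-like cells it differed for 5 members, against 6.1% of 12376 genes (2.24% higher, 3.86% lower). The difference was larger in monocyte-like cells for Dusp2 (by 0.82 ± 0.21, adjusted p = 0.0335, edgeR), Socs3, Ier5 and Ier2, and smaller for Klf4 (-0.59 ± 0.09, adjusted p = 0.00128, edgeR). Between lymphoid cells, that is T-like and NK-like cells together, and macrophage-like cells it differed for 5 members, against 2.26% of 12631 genes (0.887% higher, 1.38% lower). It was larger in lymphoid cells for Btg2 (1.37 ± 0.17, adjusted p = 0.00196, edgeR), Fosl2, Nr4a1 and Atf3, and smaller for Nfkbia (-0.78 ± 0.18, adjusted p = 0.0438, edgeR). CD8 T-like cells were 31 of the 229 lymphoid cells in WT 1 and 1017 of 1868 in KO 1, so the lymphoid sums also differ in makeup. No heat shock gene was called in either test.

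The level of the members, apart from genotype, also differed between types. Lymphoid cells were lower than macrophage-like cells in Klf4 (-3.23 ± 0.14), Fos (-3.02 ± 0.14), Atf3 (-2.99 ± 0.19), Fosb (-2.93 ± 0.10) and Ier3 (-2.72 ± 0.17), and higher in Dusp2 (5.02 ± 0.14), Egr3 (1.84 ± 0.21), Nr4a3 (1.54 ± 0.12) and Dusp5 (1.45 ± 0.10). All 9 passed in the blocked edgeR fit, in which 63.8% of all genes did (30.4% higher, 33.4% lower; 67.4% at an unadjusted p under 0.05). Changes in chaperone level between these types were smaller, from -1.41 for Hspa1a to 0.45 for Hsph1.

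**Figure D4:**
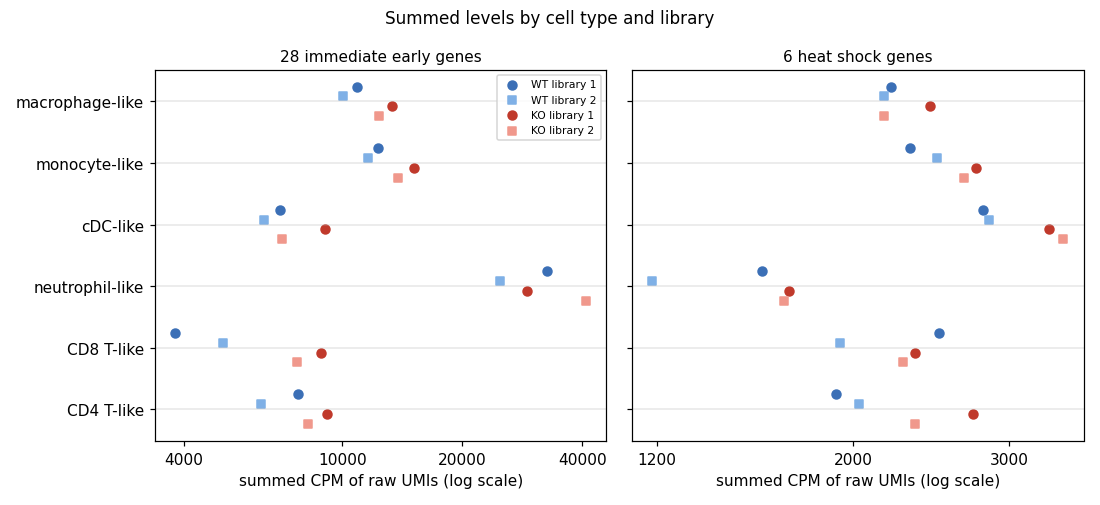
Summed CPM of the 28 immediate early genes (left) and the 6 heat shock genes (right), on log axes, for each library (points) of 6 cell types. The immediate early sum lies at 24868 to 40859 CPM in neutrophil-like cells and at 3818 to 8847 CPM in CD8 T-like cells. The heat shock sums span a narrower range and, in macrophage-like cells, come mostly from the constitutive Hspa8.

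Summed over the 28 genes, immediate early transcripts made up 10447 ± 598 CPM of raw UMIs in WT and 12846 ± 706 CPM in KO macrophage-like cells (SD, n = 2 libraries each). The heat shock sums were 2187 ± 27 and 2306 ± 197 CPM. Most of each came from the constitutive Hspa8, with a mean of 1723 TMM-scaled CPM over the libraries in these cells. The sums therefore say little about the inducible heat shock genes. In CD8 T-like cells the immediate early sums were 4416 ± 845 and 8286 ± 793 CPM and the heat shock sums 2217 ± 401 and 2313 ± 49.7 CPM. Immediate early sums of both KO libraries lay above both WT libraries in 5 of the 6 types, with overlap in neutrophil-like cells. Heat shock sums did so in 4 of the 6 types, monocyte-like, cDC-like, neutrophil-like and CD4 T-like, with overlap in macrophage-like and CD8 T-like cells. Neutrophil-like cells had the highest immediate early sums of the 6 types and the lowest heat shock sums, with median depths of 1540 to 1784 UMIs a cell.

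Depth differed between libraries, so cells were also thinned to 2000 UMIs each, leaving out 187, 100, 391 and 146 shallower macrophage-like cells. The mean immediate early count per macrophage-like cell was then 23.2, 21, 29.7 and 27.6 UMIs in WT 1, WT 2, KO 1 and KO 2, and the heat shock count 4.44, 4.32, 5.05 and 4.41. The KO libraries were higher in immediate early transcripts at equal depth, and KO 2 lay within the WT range for heat shock. At least 1 immediate early UMI was found in 99.7% to 100% of these cells.

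The immediate early and heat shock sums were weakly related from cell to cell, and the heat shock sum of macrophage-like cells is mostly Hspa8. Over the 3717 to 7129 thinned macrophage-like cells of a library, the rank correlation of the immediate early with the heat shock sum was 0.0244 to 0.171. That of Fos with Junb was 0.323 to 0.384, of Hspa1a with Hspa1b 0.343 to 0.449, of Fos with Hspa1a 0.00842 to 0.0774 and of Hspa8 with Hsp90aa1 0.0131 to 0.0617. These are descriptions over cells that share a library and a fixed depth, and counts this sparse hold correlations down.

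Inducible HSP70 was concentrated in few cells. Thinned macrophage-like cells with at least 3 UMIs of Hspa1a and Hspa1b together were 6.22%, 2.91%, 5.74% and 3.52% of the libraries, and held 69.3%, 62.5%, 60.1% and 56.1% of those UMIs. In CD8 T-like cells at the same depth such cells were 0 of 29, 1.18%, 2.75% and 2.2%. Library 1 of each genotype had the larger share in macrophage-like cells. The Hspa1-high macrophage-like cells carried a mean of 26.3, 26.3, 38.1 and 36 immediate early UMIs, and the others 23, 20.8, 29.2 and 27.3. This was not so in every type. In monocyte-like cells the means were 32.1, 28.5, 30.4 and 28 against 27.1, 25.5, 32.1 and 31.5, so the Hspa1-high cells were lower in KO. In KO CD8 T-like cells they were 18.7 and 16.75 against 18.5 and 17.1.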

How the data were processed

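The deposited matrices hold raw counts, one whole number of UMIs for a gene in a cell barcode. Per the file headers they were written by Cell Ranger 5.0.0; the submitters' processing notes name Cell Ranger 5.0.1, Seurat 3.15 and mm10. No source used here says how the 22620 genes or the barcodes were selected. Members and companion lists were chosen with earlier results of these data known. The level of the targeted gene and 1 gene of a companion list are not reported here. All members are named, and of each companion list the 4 largest called changes per direction in macrophage-like cells.

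Cells with at least 200 genes, 1000 UMIs and at most 20% mitochondrial UMIs were kept. Types were gated on marker genes, with thresholds set on markers alone after the files were seen (macrophage-like: C1q at least 0.25% of UMIs; monocyte-like: under 0.12%). Cells passing 2 or more gates were left out in place of a doublet caller, and free RNA was not removed. Cells with C1q between the gates (624 to 1687 per library) were among the ungated 25.5% to 31.2%.

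Counts were summed per library and type (at least 20 cells in each library) and tested with edgeR 4.0.16: filterByExpr, TMM, robust quasi-likelihood, Benjamini-Hochberg, threshold 0.05, two-sided, tested on simulated data. Standard errors come from the log2 change and F. Alternatives included DESeq2, total-count scaling, thinning and leaving out each library. Promoter windows come from RefSeq on GRCm38.p6, with 28 of 34 members matched. Windows on chromosome 18, which holds Egr1, were left out before the search, so Egr1 was not searched.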

Additional observations from a re-analysis of the deposited data

Results flagged for a closer look

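The KO difference of 10 member and cell-type pairs differed from that in macrophage-like cells by the interaction test (edgeR, adjusted p under 0.05). In lymphoid minus macrophage-like cells the log2 values were 0.94 for Fosl2, 0.86 for Atf3, 1.37 for Btg2, 0.76 for Nr4a1 and -0.78 for Nfkbia. In monocyte-like minus macrophage-like cells they were 0.34 for Ier2, 0.44 for Ier5, 0.82 for Dusp2, -0.59 for Klf4 and 0.45 for Socs3. Klf4 was higher in KO macrophage-like cells and at 285 CPM in both KO libraries of monocyte-like cells, below the 313 and 333 CPM of WT. The share of CD8 T-like cells among lymphoid cells moved with genotype, and its part in the lymphoid values was not tested.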

How the results depend on the processing

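Of 2327 tests of a member under an alternative setting, 65 lost and 127 gained a call, and 0 called changes reversed; in 121 the sign changed where neither fit passed. In macrophage-like cells the 11 immediate early calls became 18 with DESeq2 and 6 without Cx3cr1, Fcrls or Mki67 cells, and the 1 heat shock call became 0 with total-count scaling and 2 with cells thinned to 2000 UMIs. With no filter on low counts, 18 immediate early and 3 heat shock genes were called in CD8 T-like cells in place of 10 and 0. The 1 call in CD4 T-like cells became 0 with total-count scaling, DESeq2, mitochondrial share up to 10%, thinning or a fit that was not robust, and 4 with no filter. Thinning gave 1 immediate early call in cDC-like cells, where there had been 0. In CD8 T-like cells the KO minus WT difference in heat shock UMIs per 10000 was 2.33 at 2000 UMIs a cell and -0.594 at 4000. At 4000 only 16 of 31 cells in WT 1 and 54 of 93 in WT 2 remained. The SD of the 2 WT libraries was 4.64 there, larger than the difference. Calls over all genes moved between settings too, in macrophage-like cells from 831 higher and 584 lower to 568 and 1412 with total-count scaling. The member counts in this section are given without the share of all genes called. A changed count is therefore not by itself a result about the members. Causes were not tested.

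Leaving out each library in turn, which leaves 1 library in an arm that is assumed to vary like the other genotype, gave these ranges. Immediate early genes called higher were 7 to 13 in macrophage-like, 4 to 11 in monocyte-like, 0 to 19 in cDC-like, 0 to 2 in neutrophil-like, 7 to 16 in CD8 T-like and 0 to 6 in CD4 T-like cells. Called lower were 0 to 2 in cDC-like and 0 to 1 in neutrophil-like cells. Heat shock genes called higher were 0 to 1 in macrophage-like, neutrophil-like and CD4 T-like, 0 to 2 in cDC-like and 0 to 3 in CD8 T-like cells. Members called by interaction were 2 to 6 for lymphoid and 2 to 6 for monocyte-like cells.

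WT and KO libraries share the numbers 1 and 2, but nothing says that a number pairs them, and deviations of same-numbered libraries correlated at -0.0188 over 12419 genes. With the replicate block, immediate early calls were 14 in macrophage-like, 7 in monocyte-like, 13 in CD8 T-like and 5 in CD4 T-like cells. The share of all genes called with the block is not given, so these counts are not by themselves a result about the members. The block ended the calls of Atf3 in macrophage-like and of Ier5 (0.0573), Atf3 (0.0755) and Nfkbiz (0.058) in monocyte-like cells (adjusted p, edgeR). Too few cells remained to run the stricter gate in neutrophil-like, CD8 T-like and CD4 T-like cells and thinning in neutrophil-like cells. The C1q band, the setting without Cx3cr1, Fcrls or Mki67 cells and the fit that was not robust were chosen after seeing the data. With 31 CD8 T-like cells in WT 1, low members there rest on few UMIs.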

Other observations

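Cells outside the immune gates held both gene groups as well. Cells without Ptprc that carried tumour, endothelial or fibroblast markers numbered 204, 250, 61 and 107 in WT 1, WT 2, KO 1 and KO 2. Their heat shock sums were 3368, 3303, 5090 and 4475 CPM of raw UMIs, above those of macrophage-like cells in every library (2167 to 2445 CPM), and their immediate early sums of 4733, 5355, 6245 and 5943 CPM were below. Both KO libraries were above both WT libraries for each sum. No test was run on them.

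Ungated cells, 2341 to 3829 per library, had immediate early sums of 12247 and 11103 CPM in WT and 14325 and 13547 CPM in KO. Mast or basophil-like cells, 7 and 5 in the WT and 5 and 4 in the KO libraries, had immediate early sums of 40397, 40423, 36928 and 71827 CPM.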
